A study of Mus musculus with 4 samples.

Results

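Cytosolic ribosomal protein genes encode the proteins of the ribosome that works in the cytoplasm. In the deposited table of gene expression from mouse cells labelled lung fibroblasts, 86 of 54532 rows were taken by biotype and name. These were the protein-coding rows named Rpl or Rps followed by a digit, together with Rpsa, Rplp0, Rplp1, Rplp2 and Fau. Rps7, the Rps6k kinases and names with -ps, which mark pseudogenes, were left out. Of the 86 genes, 51 carry names of the large subunit and 33 names of the small subunit. The other 2 encode no subunit protein: Rpl7l1, a nucleolar relative of Rpl7, and Rps19bp1, which encodes a protein that binds Rps19.

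The study is concerned with protein quality control, calumenin, vimentin and fibrosis. RNA was sequenced from 4 libraries of mouse cells labelled primary lung fibroblasts, 2 with the genotype Calu-WT (called WT here) and 2 with Calu-KO. No other treatment, and no age or strain, is reported here. The titles of the Calu-KO libraries carry the letters KD, and how Calu was targeted is not given in the sources used here. Whether the 2 libraries of a genotype stem from different animals or cultures is not stated, so a p-value reflects the spread among these libraries only, and that spread may be technical.

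A ribosome has a small subunit, which reads the messenger, and a large subunit, which joins amino acids. Most ribosomal proteins are present in 1 copy per ribosome, and cells keep their supply in balance. Many of their messengers begin with a run of C and T bases at the 5′ end, the terminal oligopyrimidine (TOP) tract, through which the kinase complex mTORC1 and the protein LARP1 control their translation. The genes are short, strongly expressed and copied many times into the genome as processed pseudogenes. Fibroblasts that build matrix draw on the ribosome for collagen and other secreted proteins.

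Calu, which encodes the calcium-binding secretory pathway protein calumenin, checks the labels. It stood at 178 and 177 FPKM (fragments scaled by gene length and by a size for each library) in WT and at 14.9 and 10.9 FPKM in Calu-KO. Its log2 change was -3.70 ± 0.17 (SE; adjusted p = 0.00493, limma). The libraries held 15635448 to 16510048 reads. Calu-KO replicate 2 stood apart from the other libraries: genes of the mitochondrial genome took 4.0% of its reads, against 2.43% to 2.53% elsewhere. Of 10 fibroblast markers 6 reached 1 FPKM in every library (Vim, Col1a1, Col1a2, Col3a1, Pdgfra and Pdgfrb), while Dcn and Lum were listed at 0 in all 4 libraries and Thy1 and Fap were under 1 FPKM. The summed fibroblast markers lay at 1026 to 1033 FPKM in WT and 1060 to 1282 FPKM in Calu-KO, but the genes differed in direction. Col1a2 (234 and 229 FPKM in WT, 343 and 394 in Calu-KO) and Col1a1 (130 and 121, 146 and 188) were higher in Calu-KO. Col3a1 (38.9 and 39.4, 11.9 and 12.2) and Pdgfrb (30.8 and 29.7, 18.6 and 25.9) were lower. For Vim and Pdgfra the groups overlapped. Summed markers of 5 smooth muscle genes (14.2 to 15.8 FPKM in WT, 6.89 to 8.03 in Calu-KO), 5 macrophage genes (11.1 to 12.2 and 4.12 to 4.17), 5 epithelial genes (2.29 to 2.75 and 0.0699 to 0.0733) and 4 mesothelial genes (30.4 to 33.0 and 22.1 to 25.3) were lower in Calu-KO. Each of these sums rests on 1 or 2 genes. Only Des, Lyz2 and Cd68, Krt8, and Msln, in the order of the lists, reached 1 FPKM in any library. The 4 endothelial (0.131 to 0.234), 3 erythroid (0.123 to 0.798) and 3 lymphocyte genes (0 to 0.203) summed to under 1 FPKM everywhere, and Epcam, Sftpc, Nkx2-1, Adgre1 and Cdh5 were listed at 0. The part of these other cell types in the ribosomal protein values was not tested.

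The ribosomal protein genes were among the most strongly expressed genes of these cells. The median of their mean levels was 175 FPKM, against 8.47 FPKM over all 11885 genes tested, those with a mean of at least 1 FPKM. Of the 86 genes, 82 were tested, 78 reached a mean of 10 FPKM, 64 reached 100 FPKM and 9 reached 500 FPKM. They made up 23 of the 100 genes with the highest mean level. They lie on 20 chromosomes, with 14 on chromosome 7.

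Rplp0 and Rplp1 had the highest means, the only 2 members above 1000 FPKM. Both encode acidic proteins of the large subunit's stalk, which recruits translation factors. Rplp0 stood at 1531 and 1563 FPKM in WT and at 1768 and 2167 FPKM in Calu-KO. Rplp1 stood at 1777 and 1749 FPKM in WT and at 1795 and 1375 FPKM in Calu-KO. Rplp0 was above WT in both Calu-KO libraries, while the groups overlapped for Rplp1. The third stalk gene, Rplp2, stood at 135 and 138 FPKM in WT and 141 and 97.2 FPKM in Calu-KO. Its deposited gene length is 2072 bases and its transcript 421 bases, while both are 499 bases for Rplp1. The mean WT level of Rplp1 was 12.9 times that of Rplp2 per deposited length, and 2.62 times per length of transcript. The next genes by mean level were Rps4x, on the X chromosome, Rps27rt, Rpl4, which lines the exit tunnel for the new chain, Rpl19, Rps6, the small-subunit protein that S6 kinases phosphorylate, Rps15, Rpsa, which doubles as a laminin receptor, and Rps14. Their means over the 4 libraries ran from 497 FPKM for Rps14 to 738 FPKM for Rps4x. This order rests on the deposited lengths. With FPKM recomputed per length of transcript, Rps27, Rpl41, Rpl7, Rpl10 and Rpl13 had WT means of 1018 to 1555, above Rpl4 (814), Rps15 (812) and Rps27rt (492).

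**Figure D1:**
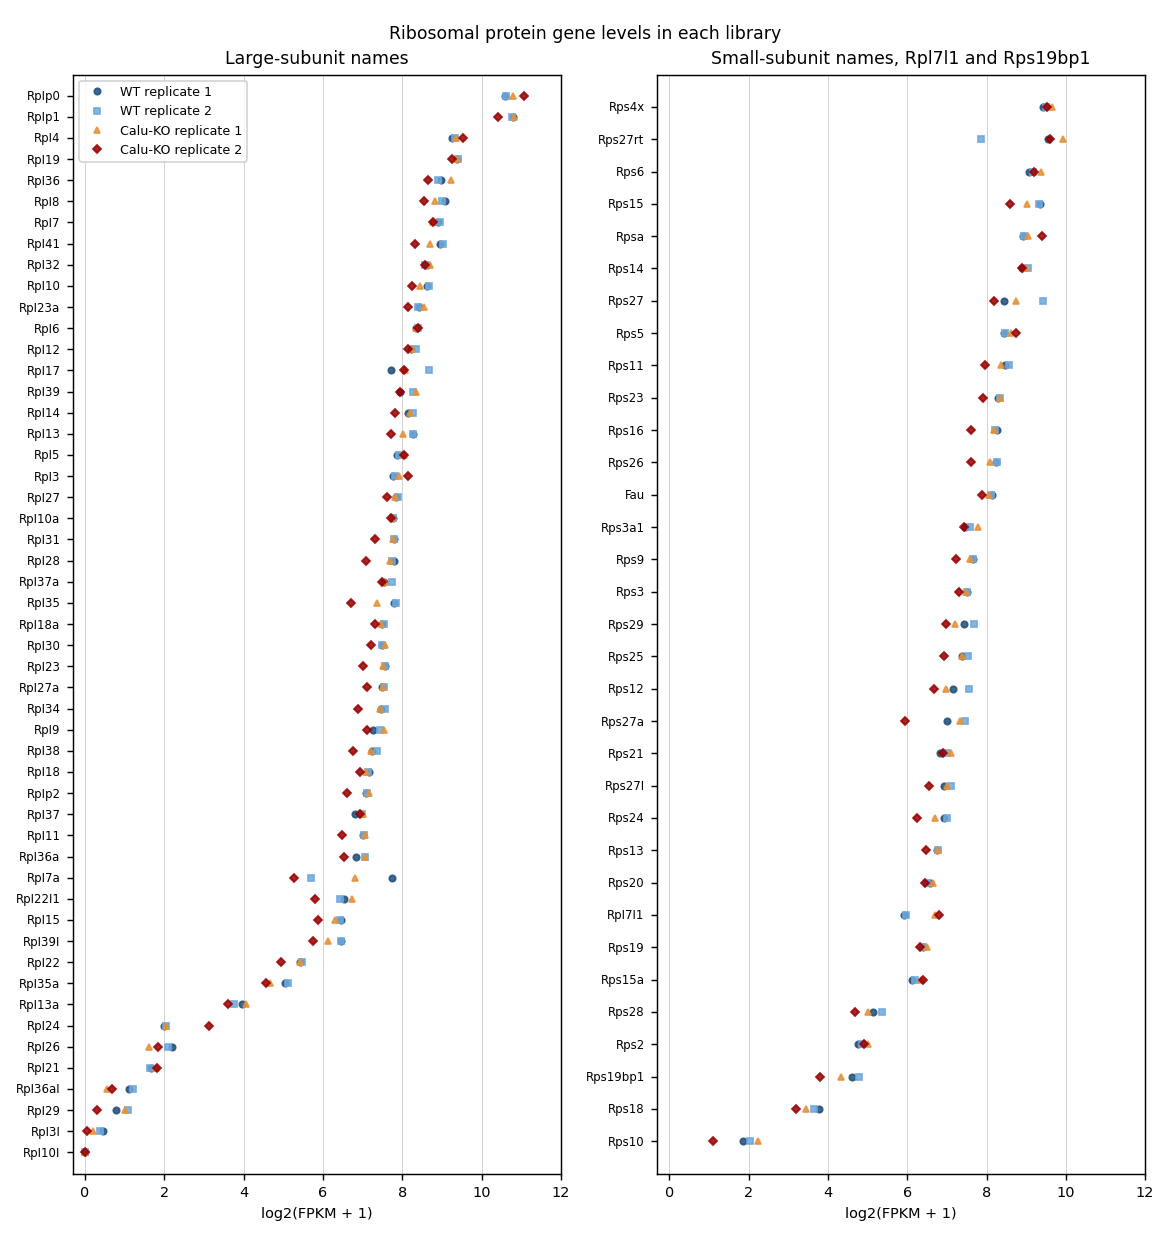
Level of ribosomal protein genes in each library, for those given here by name, as log2(FPKM + 1), with 1 point per library and the genes ordered by mean level. Most genes lie between 6 and 9 on this scale, the points of a gene mostly lie close together, and Calu-KO replicate 2 is the lowest of the 4 libraries for 59 of 82 tested genes (72.0%; 34.5% of all tested genes).

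Of the 4 genes under the filter, 2 are forms known from other tissues. Rpl10l, a retrogene known from the male germ line, had no reads in any library, and Rpl3l, the form of Rpl3 used in skeletal and heart muscle, stood at 0.372 and 0.293 FPKM in WT and 0.144 and 0.0417 FPKM in Calu-KO. Rpl36al stood at 1.17 and 1.34 FPKM in WT and at 0.481 and 0.607 FPKM in Calu-KO. Rpl29, which encodes a common protein of the large subunit, stood at only 0.705, 1.12, 0.998 and 0.243 FPKM in WT replicates 1 and 2 and Calu-KO replicates 1 and 2.

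Annotated start sites were searched for the pyrimidine tract, since it joins many of these messengers to control by mTORC1. RefSeq promoters (GRCm38.p6) matched 66 of the 86 genes, and a match is a description of letters, not of a site in use. In 25 of the 66, 37.9%, an unbroken run of at least 8 C or T bases lay within 5 bases of an annotated start. The same was true of 11.4% of 27025 genes in the promoter table and of 11.9% of 8052 other tested protein-coding genes. Of these runs 8 are shown, from genes named in these results or with a long run, followed by 3 genes without one. Each window holds 10 bases before the start and 20 from it, on the gene's strand, with the run in capitals.
Fau, chr19:6057937-6057966, plus strand: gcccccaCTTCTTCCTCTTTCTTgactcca
Rpl15, chr14:18270967-18270996, minus strand: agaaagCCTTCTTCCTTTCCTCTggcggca
Rpl28, chr7:4792955-4792984, plus strand: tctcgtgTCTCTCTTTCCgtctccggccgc
Rpl35, chr2:39005112-39005141, minus strand: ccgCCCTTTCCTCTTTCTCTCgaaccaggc
Rpl35a, chr16:33056472-33056501, plus strand: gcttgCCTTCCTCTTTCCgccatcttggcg
Rplp2, chr7:141447641-141447670, plus strand: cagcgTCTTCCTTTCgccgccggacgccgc
Rps6, chr4:86857348-86857377, minus strand: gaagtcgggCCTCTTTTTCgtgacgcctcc
Rps27, chr3:90213629-90213658, minus strand: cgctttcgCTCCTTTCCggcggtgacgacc
Rps27rt, chr9:114982720-114982749, minus strand: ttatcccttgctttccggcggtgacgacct
Rpl7l1, chr17:46782637-46782666, minus strand: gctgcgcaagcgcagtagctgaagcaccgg
Rps19bp1, chr15:80264287-80264316, minus strand: cggaagtagctcgccgcgtgtgggcggggc
Rpl7l1 and Rps19bp1, the 2 genes that encode no subunit protein, have no such run in these windows.

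The 300 bases around the start, 250 before and 50 after, were also searched on both strands for 3 words. CCGGAA, the core of sites of ETS-family factors, was in 35 of the 66 genes (53%), against 16.7% of the promoter table and 34.6% of other tested protein-coding genes. TATAAA, the TATA box, was in 7 (10.6%), against 15.7% and 7.87%. AAGATGG, the core bound by the factor YY1, was in 10 (15.2%), against 7.28% and 8.95%.

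The comparison of Calu-KO with WT asks whether supply of ribosomal protein messengers differed when calumenin was lost. Of the 82 genes tested, 1 rose and 0 fell at an adjusted p under 0.05 (limma), where 0.942% of all tested genes rose and 1.83% fell (112 and 217 genes). Of those calls 34.0% were rises, and 22.8% after rescaling to equal total reads. At an unadjusted p under 0.05 there were 1 higher and 12 lower members, 13 of 82, against 24.8% of all tested genes. With limma voom on recovered reads Rpl35a was also called, as lower (adjusted p = 0.0494, with 4.11% of all tested genes called lower and 1.98% higher).

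In direction, 57 of the 82 genes had a negative and 25 a positive log2 change. The median was -0.16, against 0.01 for all tested genes, and changes ran from -0.78 to 1.05. Both Calu-KO libraries were below both WT libraries for 35 members (42.7%; 29.7% of all tested genes), and above them for 14 members (17.1%; 32.0% of all). These counts rest on the deposited FPKM values, which stand higher in Calu-KO replicate 2 than scaling by recovered reads would give. The subunits had similar medians, -0.16 for 47 tested large-subunit genes and -0.15 for 33 small-subunit genes. The median change stayed negative under each of the 15 alternative settings. It was only -0.01 without Calu-KO replicate 2, where the median of all tested genes was 0.01. With the trend on deposited gene length removed it was -0.05, against -0.01 for all.

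The size of the change differed between the Calu-KO libraries. In Calu-KO replicate 1 the members' median difference from the WT mean was -0.01, with 39 genes above and 43 below. In Calu-KO replicate 2 it was -0.29, with 17 above and 65 below (79.3% below; 49.1% of all tested genes). Of the 82 genes, 70 were lower in replicate 2 than in replicate 1 (85.4%; 47.4% of all). Without Calu-KO replicate 1 the calls were 8 higher and 46 lower of 83 members, where 24.7% and 23.8% of all tested genes were called. Without Calu-KO replicate 2 they were 3 higher (Rpl7l1 and Rpl36 among them) and 6 lower (Rpl13, Rpl35, Rpl35a, Rpl39l, Rpl41 and Rps15) of 82, where 7.82% and 9.79% of all were called. Without WT replicate 1 they were 0 and 0 (0.0844% and 0.388% of all), and likewise without WT replicate 2 (0.0928% and 0.346%). With 1 Calu-KO library left out, the spread came from the WT libraries alone, and the lone library is assumed to vary as they do.

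**Figure D2:**
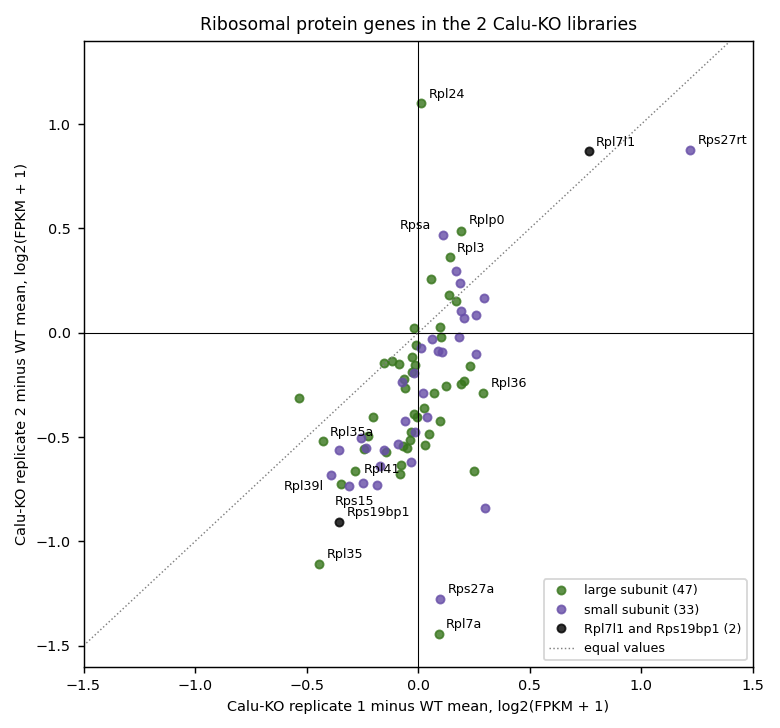
Difference of each tested gene from the WT mean in Calu-KO replicate 1 (horizontal axis) and replicate 2 (vertical axis), in log2(FPKM + 1), with 1 point per gene and the dotted line at equal values. Of the 82 points 70 lie below the line. Rpl7l1 and Rps27rt lie far to the upper right, and Rpl7a and Rps27a far down, near 0 on the horizontal axis. The 2 axes share their WT libraries.

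Summed over the family, ribosomal protein genes took 3.84% and 3.94% of reads in the WT libraries, and 3.896% and 3.15% in the Calu-KO libraries. Wilson 95% intervals ran from 3.83% to 3.85%, 3.93% to 3.95%, 3.886% to 3.905% and 3.14% to 3.16%, and cover counting error only. Calu-KO replicate 1 lay between the WT libraries and replicate 2 below all of them. The means were 3.89% ± 0.0694 in WT and 3.52% ± 0.530 in Calu-KO (SD, n = 2 each), a difference smaller than the SD of the Calu-KO pair. With Calu-KO replicate 2 left out the difference was 0.00476 percentage points. No test was run on this share, since the smallest two-sided p of an exact permutation test with 2 libraries a group is 0.333. In bulk RNA, fewer cells of a type and less RNA per cell cannot be told apart.

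The gene that rose was Rpl7l1 (ENSMUSG00000063888, chromosome 17, 46773907 to 46782672, mm10), which acts in assembly of the large subunit. It stood at 59.3 and 61.2 FPKM in WT and at 103 and 111 FPKM in Calu-KO, so that the 2 groups lay well apart. Its mean went from 60.3 ± 1.31 to 107 ± 5.68 FPKM (SD, n = 2 each), 1.78-fold higher, and the log2 change was 0.82 ± 0.11 (SE; limma adjusted p = 0.0391). Both Calu-KO libraries showed it, at 0.76 and 0.87 above the WT mean. Over the 15 alternatives the log2 change ran from 0.71 to 0.87 and the call held in 9 (adjusted p from 0.00243 to 0.429). It was lost with no filter on low values, after rescaling to equal total reads, to equal reads outside mitochondrial genes or to an equal sum of FPKM, and without WT replicate 1 or WT replicate 2. Its coding sequence shares 3.76% of its 100-base windows with 1 other locus. Within 500 kb lie 19 other tested genes, of which 0 were called, with a median log2 change of -0.06 and a range of -0.59 to 0.53.

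Rpl7, which encodes the subunit protein that Rpl7l1 resembles, did not pass the test and had a change of the other sign. It stood at 474 and 493 FPKM in WT and at 435 and 437 FPKM in Calu-KO, and its log2 change was -0.15 (adjusted p = 0.453, limma). Of the reads of the 2 genes together, Rpl7l1 held 14.0% and 13.9% in WT and 23.5% and 24.8% in Calu-KO.

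**Figure D3:**
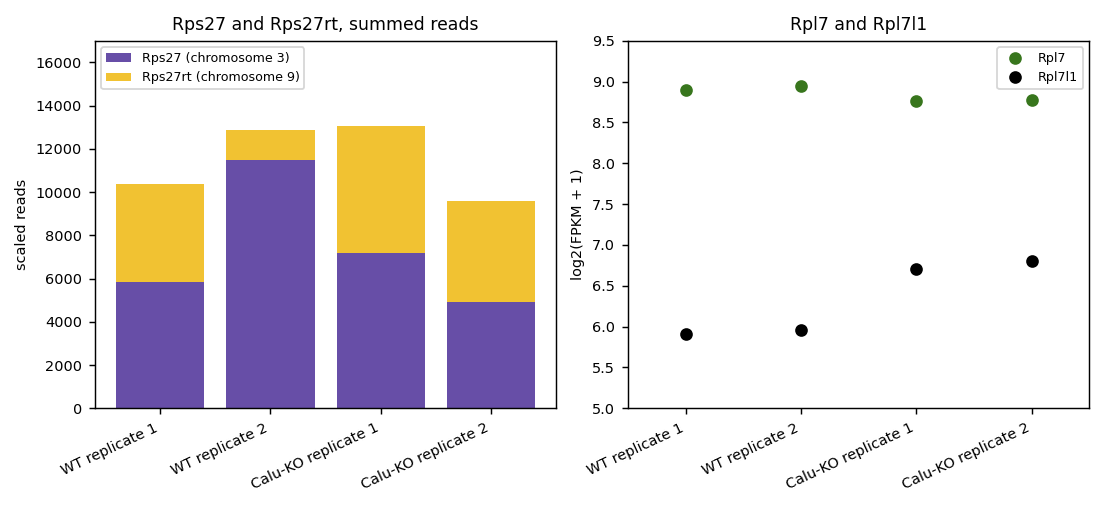
Left, scaled reads of Rps27 (lower bar) and Rps27rt (upper bar) in each library, stacked from 0. Right, the level of Rpl7 and Rpl7l1 in each library, as log2(FPKM + 1) on an axis that starts at 5. The split between Rps27 and Rps27rt differs most in WT replicate 2, and Rpl7l1 is higher in both Calu-KO libraries while Rpl7 is slightly lower.

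None of the other genes with a positive change passed the test. Rplp0 had a log2 change of 0.34 ± 0.16 (adjusted p = 0.257, limma) and Rpsa of 0.29 ± 0.16 (0.314), with 487 and 491 FPKM in WT and 529 and 678 FPKM in Calu-KO. Rpl3, which sits at the centre where peptide bonds form, stood at 216 and 224 FPKM in WT and 242 and 283 FPKM in Calu-KO (log2 change 0.25 ± 0.13, adjusted p = 0.290, limma). For all 3 genes Calu-KO replicate 2 was the highest library and the groups did not overlap. Rpl4 (608 and 640 against 649 and 745 FPKM) had the same order. Rps4x (686 and 719 against 810 and 737 FPKM) and Rps6 (542 and 571 against 666 and 590 FPKM) were highest in Calu-KO replicate 1. Counted in recovered reads, Rps4x had 18310 and 19476 in WT and 22335 and 17560 in Calu-KO. Rps6 had 14062 and 15043 in WT and 17852 and 13677 in Calu-KO. In both genes Calu-KO replicate 2 had fewer reads than either WT library, although its total of 16038560 reads was above theirs (15635448 and 16033535). Rpl24 stood at 2.96 and 3.16 FPKM in WT and at 3.10 and 7.71 FPKM in Calu-KO (log2 change 0.56 ± 0.36), with only replicate 2 above the WT libraries by more than their own gap.

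The greatest negative change was that of Rpl35 (ENSMUSG00000062997, chromosome 2, 39001580 to 39005624, mm10), a large-subunit protein at the exit of the tunnel. It stood at 220 and 227 FPKM in WT and at 164 and 103 FPKM in Calu-KO. Its log2 change was -0.78 ± 0.23 (SE; adjusted p = 0.142, limma). Both Calu-KO libraries lay under both WT libraries, but they differed from each other more than the WT libraries did. Rps15 stood at 646 and 643 FPKM in WT and at 520 and 388 FPKM in Calu-KO (log2 change -0.52 ± 0.18, adjusted p = 0.168). Rpl41, which encodes a very short basic peptide, stood at 495 and 522 FPKM in WT and at 418 and 321 FPKM in Calu-KO (log2 change -0.47 ± 0.17, adjusted p = 0.177). Rps12 stood at 143 and 186 FPKM in WT and at 124 and 101 FPKM in Calu-KO, and Rps19bp1 at 23.6 and 26.3 FPKM in WT and at 19.3 and 12.8 FPKM in Calu-KO. All 4 had separate groups, with Calu-KO replicate 2 the lowest library.

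Rpl35a, which is mutated in some cases of Diamond-Blackfan anaemia, had the lowest adjusted p of the genes with a negative change. It stood at 32.2 and 34.0 FPKM in WT and at 24.4 and 22.8 FPKM in Calu-KO, close in both libraries of each group. Its log2 change was -0.47 ± 0.11 (adjusted p = 0.0936, limma). It was named because of that value, after the values were seen, as were the genes of the next sentences, taken for their known roles. The genes of the same disease given here are not a full list, and Rpl35, also one of them, had a greater change than Rpl35a. Rps19 stood at 83.9 and 83.2 FPKM in WT and 88.9 and 78.5 FPKM in Calu-KO (log2 change 0.00). Rps24 (120 and 128 against 104 and 74.6 FPKM, -0.49) and Rps26 (300 and 307 against 269 and 194 FPKM, -0.41) did not pass the test either. Rpl5 and Rpl11, which with the 5S RNA can hold back Mdm2, had changes of unlike sign. Rpl5 stood at 231 and 239 FPKM in WT and 265 and 261 FPKM in Calu-KO (0.16), and Rpl11 at 128 and 130 against 132 and 88.4 FPKM (-0.26).

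Genes of ubiquitin and ubiquitin-like fusions release a ribosomal protein when the precursor is cut. Rps27a stood at 126 and 174 FPKM in WT and at 159 and 60.7 FPKM in Calu-KO, so that Calu-KO replicate 2 lay far below the other libraries (log2 change -0.59 ± 0.47, adjusted p = 0.460, limma). Fau stood at 283 and 277 FPKM in WT and at 266 and 237 FPKM in Calu-KO (log2 change -0.15 ± 0.12).

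Some members come in pairs of an everyday and a second form. The second forms Rpl22l1, Rpl39l and Rps27l were expressed beside the first. Rpl39l, a form of the exit tunnel protein Rpl39 known from testis and tumours, stood at 87.3 and 87.5 FPKM in WT and at 68.6 and 52.5 FPKM in Calu-KO (log2 change -0.54 ± 0.16, adjusted p = 0.138, limma). Rpl39 stood at 247 and 305 FPKM in WT and at 323 and 246 FPKM in Calu-KO (0.04). Rpl39l held 17.0% and 14.2% of the reads of the pair in WT, and 11% in each Calu-KO library. The 2 coding sequences, of 153 bases each, are shown to let the reads of the pair be judged. They differ at 23 bases (85% identical), given in capitals, from GENCODE M21 transcripts.
Rpl39: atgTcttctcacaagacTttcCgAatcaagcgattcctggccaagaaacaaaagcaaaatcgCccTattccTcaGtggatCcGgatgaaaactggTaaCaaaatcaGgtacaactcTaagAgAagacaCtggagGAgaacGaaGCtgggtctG
Rpl39l: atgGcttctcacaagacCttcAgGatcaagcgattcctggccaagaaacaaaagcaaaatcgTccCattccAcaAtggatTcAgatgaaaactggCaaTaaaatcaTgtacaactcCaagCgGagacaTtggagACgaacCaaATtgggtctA
Rpl22l1 stood at 91.3 and 84.7 FPKM in WT and at 105 and 55.2 FPKM in Calu-KO. Rpl22 stood at 41.9 and 43.4 FPKM in WT and at 41.5 and 29.6 FPKM in Calu-KO. Rpl22l1 thus held 59.8% and 57.1% of the reads of its pair in WT and 63.3% and 56.0% in Calu-KO, with no order between the groups. Rps27l stood at 121 and 136 FPKM in WT and at 127 and 92.2 FPKM in Calu-KO (log2 change -0.25 ± 0.19, adjusted p = 0.439, limma). It held 21.5% and 13.5% of its reads and those of Rps27 in WT, and 18.9% and 19.7% in Calu-KO, where Rps27 itself has a copy of the same coding sequence. Of the pair Rpl36a and Rpl36al, whose coding sequences are 87.7% identical, Rpl36al held 0.838% and 0.814% of WT reads, and 0.298% and 0.540% of Calu-KO reads.

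Rps27 and Rps27rt are 2 members with the same coding sequence. The part of read assignment between them in their values was not tested. Rps27 lies on chromosome 3 and Rps27rt, a retrotransposed copy, on chromosome 9. Their coding sequences of 252 bases differ at 0 bases, and the first 100, with the start codon in capitals, are shown once because they are the same.
Rps27 and Rps27rt: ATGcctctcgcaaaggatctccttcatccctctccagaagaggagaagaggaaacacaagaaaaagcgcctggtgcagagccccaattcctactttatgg
Rps27rt stood at 750 and 233 FPKM in WT and at 976 and 770 FPKM in Calu-KO (log2 change 1.05 ± 0.55, adjusted p = 0.296, limma). Rps27 stood at 347 and 682 FPKM in WT and at 427 and 293 FPKM in Calu-KO (log2 change -0.46 ± 0.37). The WT libraries themselves differed 3.22-fold for Rps27rt and 1.96-fold for Rps27, in opposite directions. Rps27rt held 43.7% of the reads of the pair in WT replicate 1, 10.9% in WT replicate 2, 45.0% in Calu-KO replicate 1 and 48.5% in replicate 2. Summed, the pair had 10360 and 12872 scaled reads in the WT libraries, and 13073 and 9576 in Calu-KO, where scaled reads are reads divided by the library's size factor. The sum with all copies had a log2 ratio of -0.04.

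Copies were counted for the whole family as loci in GENCODE M21 that share an exact 100-base window with the coding sequence. Of the 86 genes, 11 shared no window, 56 shared at least 50% of their windows and 26 at least 90%, with a median of 69.4%. Rpl21 shared windows with 40 loci, the most of the family, and Rpl7a with 37. The genes of low level include several with many reads in their copies. Rpl26, at 3.60 and 3.25 FPKM in WT, had 83.7 and 75.7 scaled reads in the WT libraries, and 10836 and 11284 with its 4 copies added. In Calu-KO it had 47.7 and 59.6 scaled reads, and 11948 and 11666 with the copies, so that its log2 ratio went from -0.57 to 0.09. Rpl21 had 118 and 115 scaled reads in WT, and 2213 and 2189 with copies. Rps10 had 98.5 and 115, and 2059 and 2123 with copies, and Rpl29 had 12.8 and 20.4, and 1721 and 1863 with copies. For these genes most reads of the like loci were counted at the copies.

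Between the WT libraries, 4 of 82 members (4.88%) differed at least 1.5-fold, close to the 4.68% of all tested genes. These were Rpl7a (4.19-fold), Rps27rt, Rps27 and Rpl17 (1.96-fold), and each shares at least 85.7% of its windows with other loci. Across the 82 members, however, Spearman's rho of the percentage shared with the absolute log2 difference between the WT libraries was 0.047. The median absolute difference was 0.063 for members with at least 50% shared and 0.068 for those with under 50%. With copies added, the WT libraries differed 1.01-fold for Rpl17 and 1.24-fold for Rps27, but still 2.35-fold for Rpl7a. Rpl7a stood at 212 and 50.6 FPKM in WT and at 111 and 37.6 FPKM in Calu-KO, so its log2 change of -0.67 ± 0.81 is smaller than its error. By sharing of sequence, the 9 tested genes with no shared window had a median log2 change of -0.25. The 28 with under 50% shared, which include these 9, had a median of -0.19, and the 54 with at least 50% shared of -0.15. The part of copies in the change was not tested. In Calu-KO replicates 1 and 2 the 9 unshared genes stood at -0.02 and -0.48 from the WT mean.

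The length of the coding sequence ordered the differences of Calu-KO replicate 2. Members are short, with a median coding length of 453 bases (138 to 1257), against 1389 bases for other tested protein-coding genes. Of the 27 members with 138 to 390 coding bases, 3 were above the WT mean in this library, with a median of -0.49. Of the 27 with 399 to 552 bases, 2 were above it, with a median of -0.40. Of the 28 with 564 to 1257 bases, 12 were above it, with a median of -0.10. Of the 15 with at least 700 bases, 10 were above it in replicate 2 and 11 in replicate 1. In replicate 1 the medians of the same 3 sets were -0.03, -0.03 and 0.09. Across the 82 genes, which are not independent, Spearman's rho of coding length with the difference from WT was 0.40 for Calu-KO replicate 2, 0.27 for replicate 1 and -0.17 for WT replicate 2 less WT replicate 1.

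Other protein-coding genes were set beside the members by class of coding length. Below 300 coding bases the median difference in Calu-KO replicate 2 was -0.54 for 11 members and -0.43 for 190 other genes. From 300 up to 450 bases it was -0.48 for 30 members and -0.41 for 476 others, and from 450 up to 600 bases -0.23 for 17 and -0.21 for 623. From 600 up to 900 bases it was -0.10 for 20 members and -0.16 for 1404 others. The 4 members of 900 up to 1300 bases stood at 0.31, where 1967 others stood at -0.08, and 5438 genes of 1300 bases or more, with no member among them, stood at 0.16. By deposited gene length the members and the others were less alike in Calu-KO replicate 2. Below 1000 bases the medians were -0.29 for 15 members and -0.58 for 235 others, and from 2000 up to 3000 bases -0.50 for 18 members and -0.19 for 1554 others. Spearman's rho with deposited gene length was 0.15 across the 82 members and 0.47 across 10120 others. In Calu-KO replicate 1 no coding length class of the others departed from WT by more than 0.06. By deposited length, the 235 others below 1000 bases stood at -0.12 in that library. Members there stood at -0.09 below 300 coding bases (11 genes) and at 0.17 from 900 up to 1300 (4 genes). With the trend on deposited gene length removed, the median log2 change of the members was -0.05, against -0.16 without that step. The part of RNA quality or library preparation in the order by length was not tested.

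**Figure D4:**
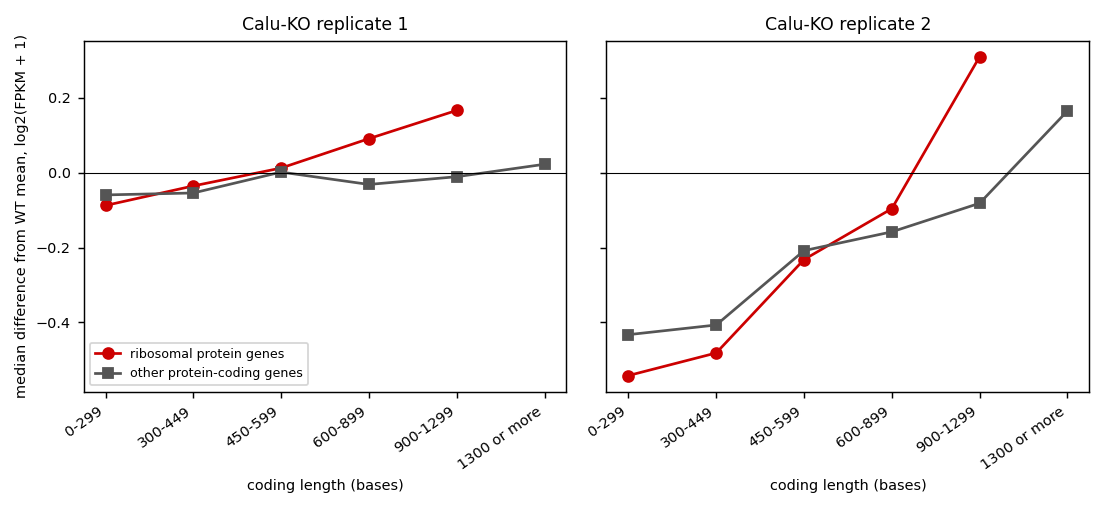
Median difference from the WT mean, in log2(FPKM + 1), by class of coding length in bases, for ribosomal protein genes (circles) and other protein-coding genes (squares), in Calu-KO replicate 1 (left) and replicate 2 (right). In replicate 2 both lines climb with length, from -0.54 and -0.43 in the shortest class. The longest class holds no ribosomal protein gene, and the class before it holds 4.

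Other genes of the translation machinery were set beside the family as lists. Mitochondrial ribosomal protein genes, which serve the separate ribosome of that organelle, had a median near that of the family. Of 77 tested 0 passed in either direction, where 0.942% of all tested genes rose and 1.83% fell. The median log2 change was -0.19. Both Calu-KO libraries lay under both WT libraries for 34 (44.2%, against 29.7% of all tested genes). They lay above them for 8 (10.4%, against 32.0% of all). The median difference of these 77 genes from the WT mean was -0.08 in Calu-KO replicate 1 and -0.35 in replicate 2. All mitochondrial ribosomal protein genes took 0.343% and 0.346% of WT reads, and 0.321% and 0.242% of Calu-KO reads. Of 84 tested pseudogene rows of the family 0 passed, with a median of -0.09. All 298 such rows took 0.324% and 0.313% of WT reads, and 0.338% and 0.284% of Calu-KO reads.

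Factors that bind or build the ribosome gave 1 call, where 0.942% of all tested genes rose and 1.83% fell. Of 10 elongation factors 0 passed (median -0.04), of 37 initiation factors 0 (0.01), of 53 ribosome biogenesis factors 0 (-0.05) and of 11 other transcripts known for a pyrimidine tract 0 (0.02). Of 28 genes of mTORC1 and its regulators 0 passed (-0.04), of 10 genes of the p53 response 0 (-0.17) and of 16 genes of ribosome quality control 0 (0.17). Of 22 genes of RNA polymerases I and III, 1 rose and 0 fell (-0.03). This was Taf1b on chromosome 12, a subunit of the factor that places RNA polymerase I at ribosomal RNA genes. It stood at 12.8 and 13.3 FPKM in WT and at 23.0 and 26.8 FPKM in Calu-KO (log2 change 0.88 ± 0.12, adjusted p = 0.0413, limma), and the call held in 10 of 15 alternatives.

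Several named genes of translation stood highest in Calu-KO replicate 2. Eef1a1, the main elongation factor, stood at 2643 and 2675 FPKM in WT and at 3136 and 4152 FPKM in Calu-KO (log2 change 0.44 ± 0.19, adjusted p = 0.228, limma). Pabpc1, the poly(A)-binding protein, stood at 426 and 419 FPKM in WT and at 536 and 794 FPKM in Calu-KO (0.62 ± 0.21, adjusted p = 0.169). Eef2 stood at 436 and 427 against 450 and 645 FPKM (0.32). For these 3 genes both Calu-KO libraries lay above both WT libraries, as they did for Rack1, a protein of the small subunit's head (271 and 278 against 307 and 319 FPKM, 0.19). Tpt1 stood at 322 and 339 FPKM in WT and 316 and 321 FPKM in Calu-KO (-0.05), and Npm1, a chaperone of the nucleolus, at 341 and 347 against 276 and 252 FPKM (-0.38 ± 0.12, adjusted p = 0.147, limma). Of the factors that act on the ribosome's making, Ncl stood at 172 and 185 against 188 and 248 FPKM (0.27), Fbl at 31.4 and 28.3 against 31.9 and 26.8 FPKM (-0.03), Larp1 at 58.0 and 59.3 against 62.2 and 94.6 FPKM (0.38) and Mtor at 7.41 and 6.72 against 7.27 and 8.74 FPKM (0.16). None of these 10 genes passed the test.

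**Figure D5:**
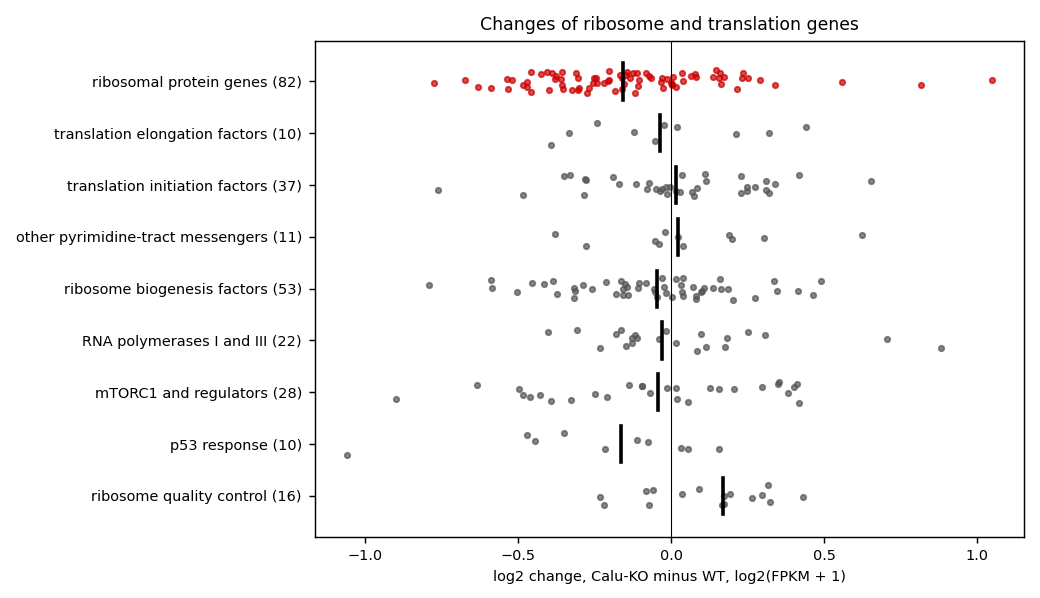
Log2 change of each tested gene (Calu-KO minus WT, log2(FPKM + 1)), with 1 point per gene, 1 row per list and the number tested in brackets. The vertical bar marks each list's median. The ribosomal protein genes have a median of -0.16, the ribosome quality control genes 0.17, and the other lists drawn lie between them, apart from the p53 response genes at -0.17. Mitochondrial ribosomal protein genes (-0.19) and pseudogene rows are not drawn.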

How the data were processed

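The authors deposited 1 table of FPKM values for 4 libraries (fragments scaled by gene length and by a size for each library), with the length of each gene. Per the labels' protocols and the submitters' processing notes, reads from a NovaSeq 6000 were aligned with HISAT2 2.0.5 to mm10. For the counter, the annotation and the use of strand, the sources used here give nothing, so reads of overlapping genes, and of near-identical copies, cannot be told apart. FPKM times gene length gave whole steps for 100% of values, from which reads were recovered. The tolerance was 0.001 reads, and wider, in proportion to the reads, for genes with many reads. In a 1-kb gene 1 read was worth 0.0591 to 0.0684 FPKM. The library size implied by these steps was not the sum of recovered reads. It was 1.46e+07 against 16038560 reads in Calu-KO replicate 2, so its values stand higher than scaling by recovered reads would give. In the other libraries the implied size, 1.64e+07 to 1.69e+07, was above the recovered reads. Rescaling to equal total reads is among the alternatives. The deposited gene length was a median 2.30 times the length of the transcript used here, which lowers FPKM as a level per length.

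Genes averaging 1 FPKM or more were fitted, as log2(FPKM + 1), by limma 3.58.1 in R 4.3.3 (eBayes with trend, two-sided), with Benjamini-Hochberg adjustment over all 11885 genes and a threshold of 0.05. This scale understates the change of low genes. A count test was not used as the values are FPKM; limma voom on recovered reads was an alternative. The steps were tested on simulated data with equal spread in both groups and no trend on length, unlike these libraries. Adjusted p-values are from limma.

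The named genes were the 10 members of highest mean, those past the threshold, the 6 greatest changes each way, fusion and stalk genes, paralog pairs, and set genes of other lists. Members and lists were chosen with earlier results of these data known. Replicates differed by more than counting error: the median chi-square per gene was 1.22 in WT and 9.90 in Calu-KO, and 4.22 and 227 for the members. This value grows with the number of reads, so the members' higher values do not by themselves show a greater relative spread. Coding sequences are from GENCODE M21 and promoters from RefSeq. Some genes are counted in the totals and not reported here by name.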

Additional observations from a re-analysis of the deposited data

How the results depend on the processing

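Of 43 named genes, log2 changes over 15 alternatives kept their direction and their side of the threshold in 574 cases, lost the call in 12, gained one in 33 and turned sign in 23. The member call, 1 higher, became 0 with no filter on low values and after each of 3 rescalings, and ran from 0 to 8 with 1 library left out (lower: 0 to 46); limma voom gave 1 lower. Over all genes, against 112 higher and 217 lower, there were 0 and 0 with no filter (limma; 3886 genes at an unadjusted p under 0.05), 63 and 80 at a mean of at least 10 FPKM, 235 and 488 with voom, and 240 and 374 with the length trend removed. Rescaling gave 45 higher for total reads, 60 for reads outside mitochondrial genes, and 47 with 122 lower for an equal sum of FPKM. With 1 library left out, higher calls ran from 10 to 2943 and lower calls from 41 to 2835. The difference in the share of reads ran from -0.74 to 0.00476 percentage points. Voom moved the median of all genes to -0.10 and of the members to -0.27, and equal total reads moved them to -0.09 and -0.27. The members less all genes stood at -0.17 and -0.18 there, at -0.17 in the reported fit and at -0.046 with the length trend removed. The causes were not tested.

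Replicate 2 less replicate 1 in WT and in Calu-KO had a Pearson correlation of r = 0.0153 across 11885 genes. With 2 libraries a group this cannot show whether libraries of the same number share a culture or batch. With the replicate block 181 genes were higher and 312 lower, against 112 and 217 without it. The member calls stayed at 1 and 0.

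Signs turned for Rpl39 under total reads (-0.072), reads outside mitochondrial genes (-0.061), an equal sum of FPKM (-0.0058) and voom (-0.074). With the length trend removed they turned for Mtor (-0.012), Rpl19 (0.070), Rpl36a (0.00030), Rps14 (0.13) and Tpt1 (0.063). With 1 library left out, log2 changes that turned ran from -0.15 to 0.10 for Fbl, -0.16 to 0.23 for Rpl39, -1.70 to 0.35 for Rpl7a, -0.10 to 0.037 for Rps14, -0.94 to 0.029 for Rps27, -0.66 to 0.25 for Rpl22l1, -0.42 to 0.10 for Rpl36a, -0.36 to 0.026 for Rplp1, -0.49 to 0.048 for Rplp2 and -1.28 to 0.10 for Rps27a.

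At 15635448 to 16510048 reads per library, counting error was small for most members, and 2 libraries per group set the limit. Genes with few reads, such as Rpl24 and Rpl26, and genes with copies are the least certain.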
